A study of Mus musculus with 4 samples.

Results

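The genes described here are the 10 that form the core of class II antigen presentation in the mouse: H2-Aa, H2-Ab1, H2-Eb1, H2-Eb2, H2-DMa, H2-DMb1, H2-Oa, H2-Ob, Cd74 and Ciita. They were chosen by name, and every probe whose transcript accession belongs to one of these symbols was taken, in both channels of all 4 arrays. All 10 had a probe that could be used, 12 probes in all among 39429, since H2-Ab1 and H2-Ob are each covered by 2 probes. They stand among 23568 genes or accessions that were tested. Every one of the 12 probes was well above background in both channels on all 4 arrays, so none of their values is a bound.

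Class II molecules are pairs of an alpha and a beta chain that display peptides from endosomes to CD4+ T cells. H2-Aa and H2-Ab1 encode the alpha and beta chain of I-A, H2-Eb1 encodes the beta chain of I-E, and H2-Eb2 is a beta chain gene beside it whose product is little studied. The invariant chain, encoded by Cd74, fills the groove of the new pair and guides it to the endosome, H2-DMa and H2-DMb1 encode the exchange factor H2-DM that swaps the last piece of the invariant chain for peptide, and H2-Oa and H2-Ob encode H2-DO, which holds H2-DM back. Ciita encodes the coactivator that these genes share. In myeloid cells class II is kept high in dendritic cells and is raised in macrophages by interferon gamma.

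The study set macrophages of wildtype mice against macrophages of CDK5R1 knockout mice, at rest and after lipopolysaccharide (LPS), a bacterial cell wall component. Cdk5r1 is the gene for p35, which binds CDK5 and switches this kinase on. Per the labels, marrow of male mice aged 6 weeks was cultured for 7 days with GM-CSF at 25 ng/ml, the LPS groups then received E. coli LPS at 100 ng/ml for 6 h, and both genotypes carry the strain name B6.129S4-Cdk5r1tm1Lht/J. The 4 groups are thus wildtype basal, knockout basal, wildtype LPS and knockout LPS, each measured 2 times: every array paired wildtype RNA in Cy3 with knockout RNA in Cy5, on 2 basal and 2 LPS arrays that the labels call biological replicates without naming animals. If the replicates came from a shared culture or animal, the p-values measure technical spread. The dyes were never exchanged, so in a ratio of knockout to wildtype a dye effect of a probe and the genotype cannot be told apart.

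The label of the cells was set against marker lists. The 9 macrophage markers that were kept, Adgre1, Csf1r and Mertk among them, were well above background in all 8 channel values, and so were all 11 kept dendritic cell markers, Zbtb46 and Flt3 included. Of the 9 kept B cell markers 6 were above background in all 8 values. Pax5 and Blk were above it in 4 of the 8, and Ebf1 was not kept. Of the 7 kept T cell markers 4 were above background in all 8 values and 0 differed between genotypes after LPS. Of 4 plasmacytoid markers all 4 were above it and 1 was higher in the knockout after LPS. Among all genes 12.4% were called in that comparison and 7.17% were higher. The targeted gene Cdk5r1 had log2 ratios of knockout over wildtype of -0.37, -0.59, -2.55 and -2.29 at its brighter probe (basal replicates 1 and 2, then LPS replicates 1 and 2), below 0 on each array. Where its probes lie relative to the deleted part was not determined. The median spot intensity of an array ranged from 76.0 to 97.5 for Cy3 and from 116 to 145.5 for Cy5, and the number of arrays limits every estimate.

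Class II genes are known for a shared promoter layout, in which an X box bound by RFX and a Y box bound by NF-Y lie at a fixed distance and together recruit the Ciita product. The RefSeq promoter table (GRCm38.p6) holds 7 of the 10 genes, on chromosome 17, with 2 start sites for H2-DMa. H2-Ab1, Cd74 and Ciita had no entry. A pair of short words was searched in the 250 bases before each start: GNAAC and, on the same strand, TGATTGG with its first base 28 to 31 bases after the first base of GNAAC. These spacings leave no overlap between the words, and both words and spacings were chosen after the sequences had been read. The pair was present before H2-Aa, H2-Eb1, H2-Eb2, H2-DMb1, H2-Oa and H2-Ob, and before neither start of H2-DMa. Of all 32851 promoters in the table, searched on both strands, 29 (0.0883%) held it, 23 of them outside these genes. TGATTGG alone was in 7.23% and GNAAC alone in 79.6%.

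The last 150 bases before the start are printed 5′ to 3′ on the gene's strand to show this layout in genes whose responses differed, with the pair in capitals. They lie at chr17:34287824-34287973 on the minus strand for H2-Aa and, on the plus strand, at chr17:34305717-34305866 for H2-Eb1, chr17:34325525-34325674 for H2-Eb2, chr17:34153041-34153190 for H2-DMb1, chr17:34092229-34092378 for H2-Oa and chr17:34238755-34238904 for H2-Ob.
H2-Aa: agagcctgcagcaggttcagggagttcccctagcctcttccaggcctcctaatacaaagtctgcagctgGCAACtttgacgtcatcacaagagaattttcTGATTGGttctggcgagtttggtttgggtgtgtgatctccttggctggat
H2-Eb1: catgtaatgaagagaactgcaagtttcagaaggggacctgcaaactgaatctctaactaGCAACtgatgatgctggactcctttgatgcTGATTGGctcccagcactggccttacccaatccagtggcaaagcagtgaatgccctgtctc
H2-Eb2: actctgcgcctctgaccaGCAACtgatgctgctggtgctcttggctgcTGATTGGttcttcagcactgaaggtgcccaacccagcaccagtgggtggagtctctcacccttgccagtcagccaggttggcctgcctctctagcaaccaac
H2-DMb1: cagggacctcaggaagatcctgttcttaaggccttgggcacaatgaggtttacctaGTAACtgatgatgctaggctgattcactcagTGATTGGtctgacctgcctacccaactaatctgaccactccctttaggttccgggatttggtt
H2-Oa: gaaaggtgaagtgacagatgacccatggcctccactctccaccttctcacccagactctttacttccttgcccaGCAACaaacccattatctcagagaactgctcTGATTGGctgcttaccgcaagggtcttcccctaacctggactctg
H2-Ob: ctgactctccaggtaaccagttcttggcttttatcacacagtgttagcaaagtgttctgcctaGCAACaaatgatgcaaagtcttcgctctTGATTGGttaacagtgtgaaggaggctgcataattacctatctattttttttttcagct
In H2-Aa, H2-DMb1 and H2-Oa the first bases of the words stand 31 bases apart, in H2-Eb1 and H2-Eb2 30 and in H2-Ob 28. The pair begins 132 bases before the start of H2-Eb2, farther out than in the others, which range from 76 in H2-Oa to 94 in H2-DMb1. A match says only that these letters are in the window. After LPS, H2-Eb2 and H2-DMb1, which both hold the pair, moved in opposite directions, as described next.

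The class II genes did not move together after LPS. H2-Eb2 rose about 5-fold, both H2-DM genes fell, and no change of Ciita, the invariant chain, the I-A chains, H2-Eb1 or the H2-DO genes passed the test. The same 3 genes passed in both genotypes, each fitted alone within its own dye with limma: 1 higher and 2 lower in wildtype and 1 higher and 2 lower in knockout. Over all genes tested, 18.2% were higher and 22.7% lower in wildtype cells, and 19% and 21.9% in knockout cells, 40.9% in either direction in wildtype and 40.9% in knockout, so a count of 3 of 10 is no larger than the background. The median difference of the 10 genes was -0.11 on the log2 scale in wildtype and 0.05 in knockout, beside medians within 0.01 of 0 over all genes. Marker sums moved with LPS as well. They are the log2 of the summed linear levels of a list, so its brightest genes weigh most. Over both genotypes the macrophage sum went from 17.7 to 18.0 at rest to 16.6 to 17.1. The dendritic cell sum went from 17.0 to 17.3 to 17.7 to 17.9. Single markers were split. In wildtype cells 3 of 11 dendritic cell markers rose and 5 fell, and 2 of 9 macrophage markers rose and 5 fell. The part of cell types in these results was not tested. In bulk samples like these, fewer cells of a type and less RNA per cell cannot be told apart.

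H2-Eb2 had log2 levels of 8.27 and 8.05 in the wildtype basal samples and 10.25 and 10.86 after LPS. Levels here are log2 intensities after the arrays were brought to a common scale. In knockout cells the levels were 8.75 and 8.40 at rest and 10.69 and 11.46 after LPS. Every LPS value lay above every basal value, by more than the spread of either group. The median spot intensity behind these values went from 252.5 and 269.5 to 810 and 1348 in the wildtype channel. Over both channels 62.3% to 85.1% of probes were dimmer. The change was 2.40 ± 0.23 in wildtype (SE, n = 2 arrays per condition, 5.26-fold, adjusted p = 0.0023) and 2.50 ± 0.30 in knockout (5.67-fold, adjusted p = 0.0050). In each genotype it passed under all 13 alternative settings, with estimates of 2.09 to 2.70 and 2.11 to 2.89.

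**Figure D1:**
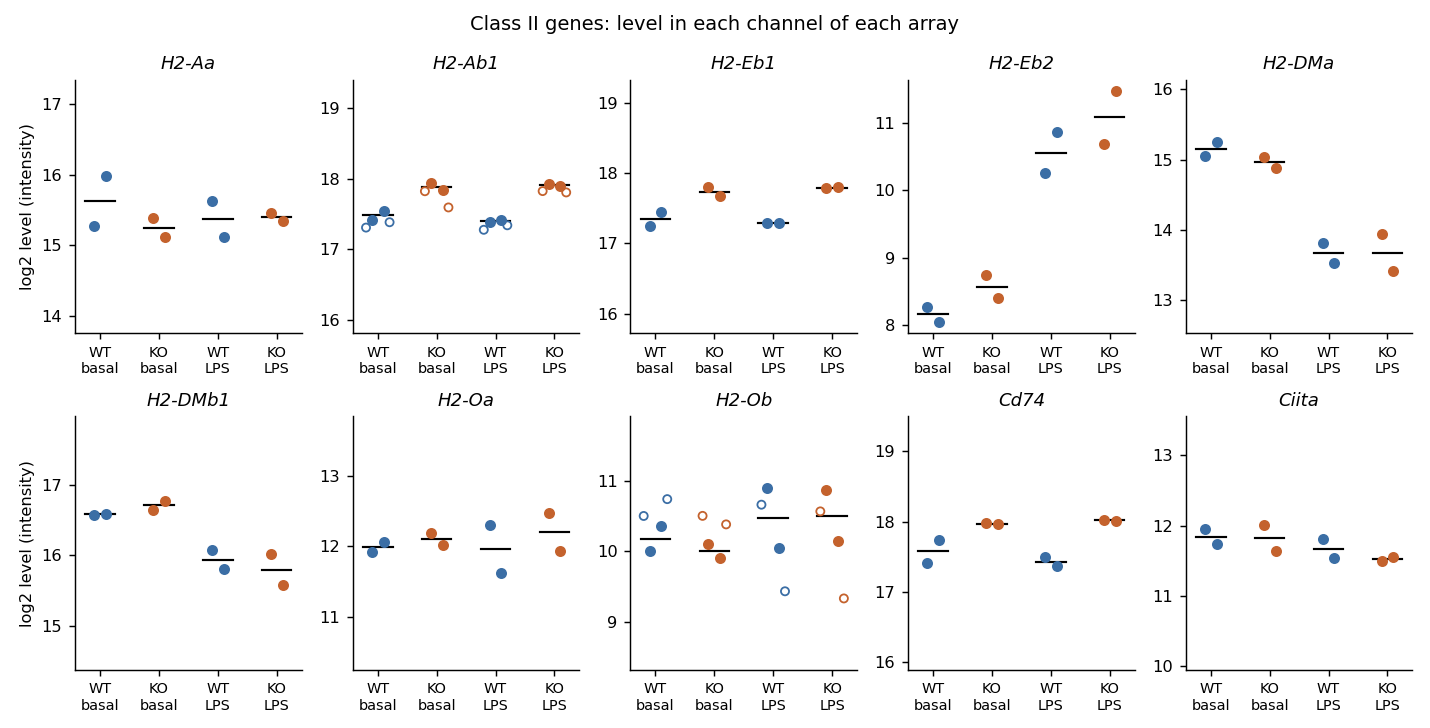
Log2 level of each class II gene in every sample, wildtype (WT, blue, Cy3) and knockout (KO, orange, Cy5), with 2 arrays per group; filled points are the probe used for the gene, open points its other probe where there is one, and the bar is the group mean. H2-Eb2 climbs from about 8 to between 10.25 and 11.46 after LPS, H2-DMa drops from about 15 to between 13.42 and 13.94, and Cd74, H2-Ab1 and H2-Eb1 lie in narrow bands near the top of the scale.

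H2-DMa, the alpha chain of the peptide exchanger, had levels of 15.05 and 15.25 in wildtype basal cells and 13.82 and 13.53 after LPS. The knockout levels were 15.04 and 14.88, then 13.94 and 13.42. All 4 LPS values lay below all 4 basal values, with no overlap. The fall was -1.47 ± 0.14 in wildtype (adjusted p = 0.0024) and -1.28 ± 0.20 in knockout (adjusted p = 0.010), which is 2.78-fold and 2.43-fold. The partner chain gene H2-DMb1 had levels of 16.58 and 16.59, then 16.08 and 15.80 in wildtype, and 16.65 and 16.77, then 16.01 and 15.57 in knockout. Here too the conditions did not overlap. The fall was -0.65 ± 0.13 in wildtype (adjusted p = 0.016) and -0.92 ± 0.18 in knockout (adjusted p = 0.018).

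The call on H2-DMb1 rests on the scaling across arrays. With each channel scaled to its 75th percentile the median of all genes moved up by 0.37 in wildtype and 0.35 in knockout, and calls over all genes went from 4284 higher and 5349 lower to 11499 higher and 4264 lower in wildtype. H2-DMb1 was then at -0.11 (adjusted p = 0.56) and -0.40 (adjusted p = 0.13), while H2-DMa stayed lower at -0.95 (adjusted p = 0.0062) and -0.78 (adjusted p = 0.032). Leaving out basal replicate 1 or 2 also ended the call on H2-DMb1 in both genotypes, with adjusted p of 0.086 and 0.092 in wildtype and 0.081 and 0.11 in knockout, and that on H2-DMa in knockout cells, with adjusted p of 0.070 and 0.062. In each such fit the lone basal array is assumed to vary like the LPS arrays.

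On the common scale, the genes for the classical chains and the invariant chain stayed within a narrow range. Cd74 had levels of 17.41 and 17.74 in wildtype basal cells and 17.49 and 17.37 after LPS, a change of -0.15 with a 95% interval from -0.53 to 0.24. In knockout cells its change was 0.05, with an interval from -0.20 to 0.30. H2-Ab1 changed by -0.08 in wildtype (interval -0.34 to 0.18) and 0.02 in knockout (-0.25 to 0.29), and its second probe gave -0.04 and 0.11. H2-Eb1 changed by -0.06 (-0.35 to 0.23) and 0.06 (-0.22 to 0.33). These 3 genes lie at the top of the brightness scale, where 49 of the 23568 genes were as bright as H2-Eb1 or brighter. The other 46, Actb, Fth1 and genes for ribosomal proteins among them, changed by a median of -0.02 in wildtype, in a range from -0.10 to 0.40. The common scale gives each array the same distribution of levels averaged over both channels. Genes at its very top thus have little room to differ between arrays. Their small changes and narrow intervals cannot show that their RNA was steady. Under the 75th percentile scaling the sign of the small wildtype values turned and they passed the test, with Cd74 at 0.46, H2-Ab1 at 0.49 and H2-Eb1 at 0.52.

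H2-Aa, the alpha chain of I-A, scattered more. Its wildtype levels were 15.27 and 15.99 at rest and 15.63 and 15.12 after LPS, and its knockout levels 15.38 and 15.11, then 15.46 and 15.35. The highest value, wildtype basal replicate 2, stood well above the other basal wildtype sample, and the conditions overlapped in wildtype cells. The change was -0.25 in wildtype (95% interval -1.04 to 0.54) and 0.16 in knockout (-0.20 to 0.51), the wildtype interval being among the widest of the 10 genes. In knockout cells it passed at 0.71 under the 75th percentile scaling (adjusted p = 0.014).

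**Figure D2:**
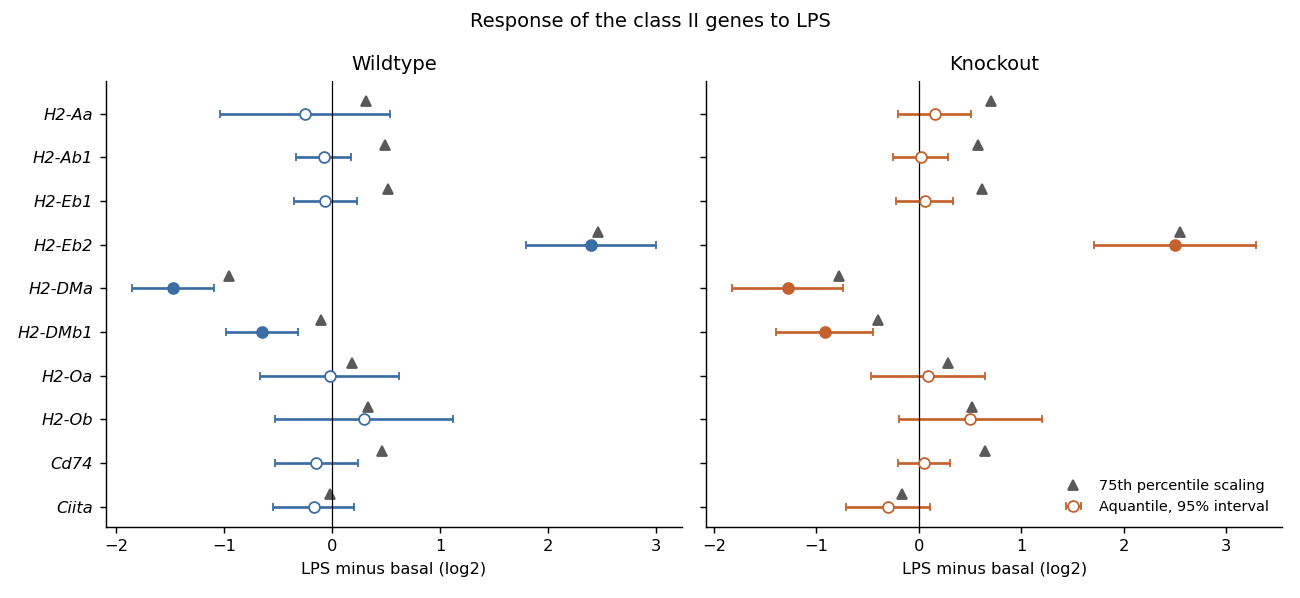
Difference between LPS and basal samples in log2 units for each class II gene, in wildtype (left) and knockout (right) cells; circles with bars are the estimate and its 95% interval after Aquantile scaling, filled where the adjusted p is under 0.05, and triangles are the estimate with 75th percentile scaling. H2-Eb2 and H2-DMa keep their direction under both scalings, while the values of Cd74, H2-Ab1 and H2-Eb1 move from about 0 to between 0.46 and 0.64.

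The inhibitory H2-DO genes and Ciita were dimmer and gave no call. H2-Oa had levels of 11.92 and 12.07 in wildtype basal cells and 12.31 and 11.63 after LPS, so the LPS samples bracketed the basal ones. Its change was -0.02 (95% interval -0.67 to 0.62) in wildtype and 0.09 (-0.46 to 0.65) in knockout. The 2 probes of H2-Ob disagreed: the brighter one gave 0.30 in wildtype and 0.50 in knockout, the other -0.57 and -0.49. At the second probe LPS replicate 2 was the low sample in both channels, at 9.43 and 9.33 against 10.66 and 10.57 in replicate 1. At the first probe, without LPS replicate 2 the knockout change was 0.86 and passed (adjusted p = 0.015), and without LPS replicate 1 it was 0.15. No direction is therefore given for H2-Ob.

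Ciita had levels of 11.95 and 11.74 in wildtype basal cells and 11.81 and 11.54 after LPS. In knockout cells they were 12.01 and 11.64, then 2 values no higher than 11.55. The wildtype groups overlapped, whereas in knockout cells both LPS values lay below both basal values. The change was -0.17 (95% interval -0.55 to 0.20) in wildtype and -0.30 (-0.71 to 0.11) in knockout, with adjusted p of 0.40 and 0.19. In wildtype cells 3 of the 10 genes had conditions that did not overlap, and in knockout cells 6 of 10, beside 75% and 76% of all genes.

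Between the genotypes, 4 of the 10 genes were higher in the knockout channel after LPS, namely Cd74, H2-Ab1, H2-Eb1 and H2-Eb2, and none was lower. Over all genes 7.17% were higher and 5.23% lower in that comparison, 12.4% in all. At rest H2-Ab1 and H2-Eb2 passed, where 3.37% of all genes were higher, 1.5% lower and 4.87% either. Averaged over both conditions the same 4 genes passed as under LPS, beside 9.95% of all genes higher, 8.22% lower and 18.2% either. These 4 were above 0 on all 4 arrays, as were 20.3% of all genes. Each of the other 6 was above 0 on some arrays and below it on others, and 18.7% of all genes were below 0 on all 4.

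For H2-Eb2 the log2 ratio of knockout over wildtype was 0.48 in basal replicate 1 and 0.34 in basal replicate 2, and 0.44 and 0.60 in the LPS replicates. The mean was 0.41 ± 0.078 at rest (1.33-fold, adjusted p = 0.035) and 0.52 ± 0.078 after LPS (1.43-fold, adjusted p = 0.0094), and 0.47 ± 0.055 over both (adjusted p = 0.0027). The difference between conditions was 0.11 with a 95% interval from -0.16 to 0.37. Taken from the scanner's processed signals the size was similar, at 0.43 and 0.54, but did not pass in either condition (adjusted p = 0.15 and 0.067). Over both conditions it passed in all 12 alternatives, with adjusted p between 3.5e-04 and 0.033.

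Cd74 had ratios of 0.57 and 0.22 at rest and 0.53 and 0.65 after LPS. H2-Ab1 had 0.53 and 0.29, then 0.54 and 0.47, and its second probe 0.52 and 0.21, then 0.55 and 0.47. H2-Eb1 had 0.55 and 0.22, then 0.50 and 0.51. Basal replicate 2 was the lowest of the 4 arrays for all 3 genes, and the 3 genes kept close to each other on every array. After LPS the means were 0.59 ± 0.098 for Cd74 (adjusted p = 0.013), 0.51 ± 0.081 for H2-Ab1 (adjusted p = 0.012) and 0.51 ± 0.092 for H2-Eb1 (adjusted p = 0.018). At rest they were 0.39, 0.41 and 0.39, with adjusted p of 0.086, 0.041 and 0.076.

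Other genes of the same brightness had ratios of the same size. Of the 46 that were as bright as H2-Eb1 or brighter, all 46 were above 0 at rest, with a median of 0.47, and 44 were above 0 after LPS, with a median of 0.41. Of them 31 were called higher at rest and 32 after LPS, and 0 lower. The scanner's processed signals were taken as they stood, and any dye normalisation already in them was not examined. With them the medians of the 46 genes were 0.25 and 0.17 with 0 calls. Cd74 was at 0.14 and 0.32, H2-Ab1 at 0.13 and 0.21 and H2-Eb1 at 0.08 and 0.16, none of them past the threshold. With median centring in place of loess the median of the 46 was 1.11 after LPS, and the class II genes moved up with it, Cd74 to 1.03, H2-Ab1 to 1.04 and H2-Eb1 to 1.01 at rest and all 3 higher still after LPS. Calls over all genes then went from 795 higher and 353 lower to 3812 and 647 at rest, and from 1690 and 1232 to 4632 and 859 after LPS. The part of signal level in the ratios of Cd74, H2-Ab1 and H2-Eb1 was not tested further. H2-Eb2 lay in the middle of the brightness range, where the median ratio of all genes was close to 0. Its ratios were, however, close to those of the far brighter H2-Eb1. The LPS changes in wildtype cells were 2.40 for H2-Eb2 and -0.06 for H2-Eb1. Whether the probes of these related genes also bind each other's transcript was not tested.

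**Figure D3:**
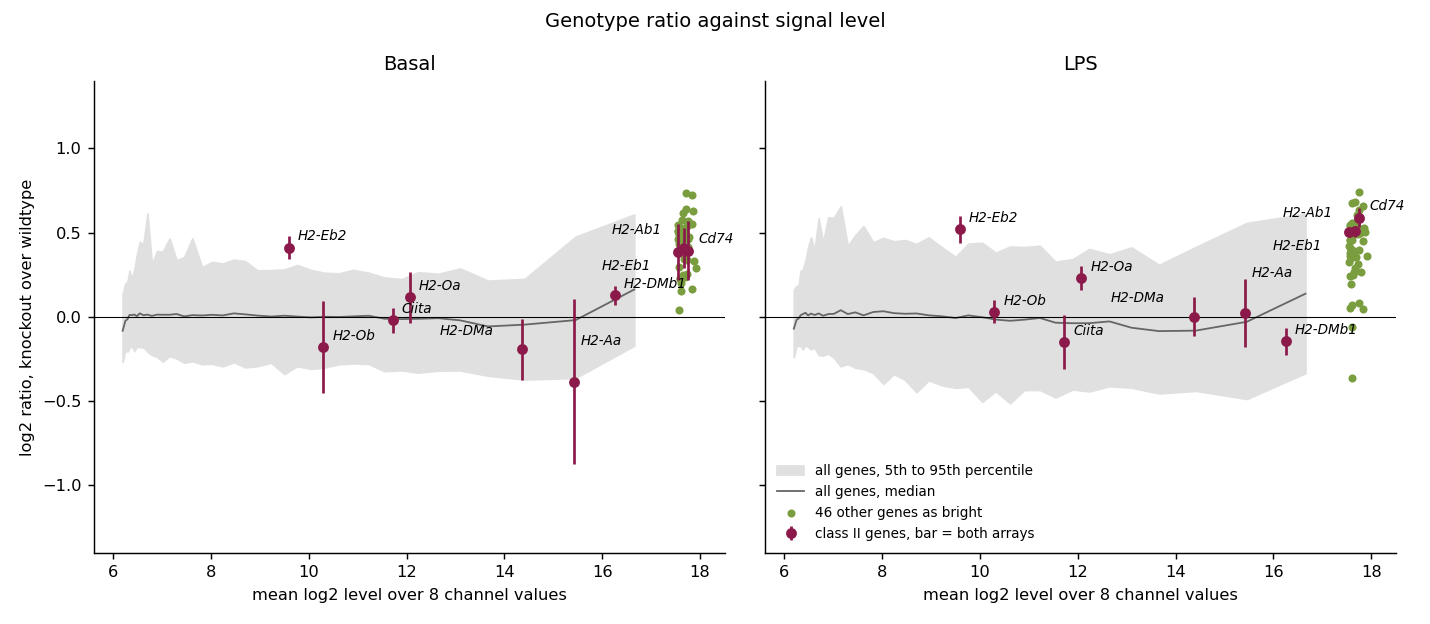
Log2 ratio of knockout over wildtype (mean of 2 arrays) against the mean log2 level of the gene, at rest (left) and after LPS (right); the grey band and line are the 5th to 95th percentile and the median of all genes in 40 bins of level, green points the 46 other genes as bright as H2-Eb1, and the bars of the class II genes run from one array to the other. Cd74, H2-Ab1 and H2-Eb1 lie inside the cloud of equally bright genes, and H2-Eb2, at 0.41 and 0.52, lies above the band of genes of its level.

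The LPS calls between genotypes need both LPS arrays. With either of them left out 0 of 10 passed instead of 4, with H2-Eb2 at adjusted p of 0.066 and 0.12 and Cd74 at 0.11 and 0.15, although the estimates of these 2 genes stayed between 0.44 and 0.65; the lone LPS array is assumed to vary like the basal arrays. At rest, each array left out in turn ended both calls, with adjusted p between 0.070 and 0.24 for H2-Eb2 and between 0.057 and 0.30 for H2-Ab1, and the mean over both probes of H2-Ab1 did not pass either (adjusted p = 0.055). Without basal replicate 2 the 2 genes called at rest were instead Cd74 at 0.57 (adjusted p = 0.047) and H2-Eb1 at 0.55 (adjusted p = 0.046). Markers of granulocytes moved with the genotype: 5 of 7 (Camp, Ltf, Ngp, S100a8 and S100a9) were lower in the knockout at rest and 5 of 7 after LPS. Among all genes 1.5% were lower at rest and 5.23% after LPS. Elane and Mpo were not called. The log2 of the summed linear level of all 7 was 18.1 to 18.2 in wildtype and 16.5 to 16.6 in knockout LPS samples. The summed dendritic cell level was 17.7 to 17.9 in wildtype and 17.9 in knockout LPS samples. There 2 of 11 markers were higher and 1 lower, beside 7.17% and 5.23% of all genes. The summed B cell level was 10.1 to 10.2 in wildtype and 10.2 to 10.3 in knockout LPS samples. At rest it was 10.45 to 10.54 in wildtype and 10.73 to 10.86 in knockout samples. Of 9 B cell markers 1 was higher and 0 lower over both conditions, beside 9.95% and 8.22% of all genes. This was Spib, at 0.40 ± 0.10 (adjusted p = 0.039), the brightest of the 9. The part of other cells in the class II ratios was not tested.

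The remaining 6 genes gave no genotype call in any of the 3 comparisons. H2-Aa had ratios of 0.11 and -0.88 at rest and -0.18 and 0.23 after LPS and so disagreed in sign between replicates in both conditions. Without basal replicate 1 it was called lower at -0.88 (adjusted p = 0.030), which then rests on basal replicate 2. Its beta chain partner H2-Ab1 was above 0 on the same 4 arrays. H2-Oa had 0.27, -0.04, 0.16 and 0.30, with a mean after LPS of 0.23 and a 95% interval from 0.01 to 0.46 (adjusted p = 0.16). With median centring H2-Oa passed, at 0.44 after LPS (adjusted p = 0.016) and 0.38 over both conditions (adjusted p = 0.0044). Ciita had 0.06, -0.10, -0.31 and 0.01, and its interval after LPS ran from -0.38 to 0.08.

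H2-DMa had ratios of -0.01 and -0.37 at rest and 0.12 and -0.11 after LPS. H2-DMb1 had 0.07 and 0.19 at rest and -0.06 and -0.23 after LPS, so the gene was higher in the knockout channel on both basal arrays and lower on both LPS arrays. With median centring its ratio after LPS was 0.39 instead of -0.14 and passed (adjusted p = 0.048), so that the direction of the LPS ratio depends on how the array was normalised. H2-Ob had 0.09, -0.45, -0.04 and 0.10. The difference between the conditions, in which a constant dye effect cancels, passed for 0 of 10 genes in limma, beside 0.403% of all genes. At an unadjusted p under 0.05 it was 1 of 10, beside 10.4% of all genes, namely H2-DMb1 at -0.27 ± 0.11 (adjusted p = 0.45). The intervals of this difference reach from -0.18 to 0.37 for H2-Ab1 and from -0.13 to 0.53 for Cd74, and hold 0 in both.

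The levels of H2-Aa, H2-Ab1, H2-Eb1 and Cd74, each centred on its own mean, were averaged into 1 profile of 8 values. It was followed most closely by Cdc45 (Pearson r = 0.86), 9030025P20Rik (0.85), D5Ertd605e (0.85), Dlgap5 (0.85) and Zfp945 (0.84). These came from 6469 genes with a symbol that spanned at least 1 log2 unit. A match to the average need not hold for each gene in it. H2-Aa was highest in wildtype basal replicate 2, at 15.99. The 8 values share arrays and dyes. The mean profile that was matched spanned 0.50 log2 units in all, and its wildtype samples lay at or below 0.09 and its knockout samples at or above 0.05 around the mean, with the other wildtype samples at -0.14 or below. Cdc45, a subunit of the active replicative helicase, was at 6.78 to 7.08 in wildtype and 7.83 to 7.92 in knockout samples.

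Of 15 regulators that act on class II promoters 6 rose and 3 fell with LPS in wildtype cells, and 8 rose and 1 fell in knockout cells, beside 40.9% of all genes called in either direction in each genotype. For this and the next lists no test of the list as a whole was made. Irf8, an interferon regulatory factor of myeloid cells, rose by 2.99 ± 0.18, Prdm1, a repressor of Ciita, by 1.48 ± 0.21 and Kat2b, a histone acetyltransferase, by 1.34 ± 0.18 (adjusted p of 8.8e-04, 0.0065 and 0.0054). Between the genotypes 0 of 15 passed at rest in limma, with 2 at an unadjusted p under 0.05, beside 19.8% of all genes. After LPS 5 were higher, beside 7.17% of all genes. Among these were Irf8 at 0.57 ± 0.096 (adjusted p = 0.014), Nfya, a subunit of NF-Y, at 0.49 ± 0.068 (0.0073), Prdm1 at 0.40 ± 0.092 (0.037) and the coactivator Crebbp at 0.38 ± 0.076 (0.024). Over both conditions 5 were higher, beside 9.95% of all genes, with Nfya at 0.38, Irf8 at 0.35, Crebbp at 0.30 and Prdm1 at 0.25. Nfya was above 0 on all 4 arrays, at 0.32, 0.24, 0.50 and 0.47, whereas Irf8 and Prdm1 were at -0.06 and -0.02 on basal replicate 2.

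Of 10 genes on the interferon gamma route to Ciita 7 rose and 1 fell with LPS in each genotype. Over all genes 18.2% rose and 22.7% fell in wildtype cells, and 19% and 21.9% in knockout cells. Socs1, which inhibits JAK kinases, rose by 3.10 ± 0.31 and the receptor chain Ifngr1 fell by 2.56 on the log2 scale (adjusted p = 0.0026 and 0.0015). Ifng, the ligand, was not well above background in any basal sample and reached 9.53 and 9.37 in wildtype LPS samples, at least 9.56-fold higher than the detection floor of the basal samples. Between the genotypes 0 of 10 passed in limma at rest and after LPS (2 and 3 at an unadjusted p under 0.05, beside 19.8% and 29.1% of all genes), and over both conditions Irf1, a factor at a Ciita promoter, was higher at 0.24 ± 0.047 (adjusted p = 0.019) and Usf1 lower at -0.23 ± 0.049 (0.025). A second Irf1 probe was within 0.01 of 0 in both conditions.

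Of 13 genes for peptide generation and invariant chain cleavage 1 rose and 6 fell with LPS in wildtype cells, and 1 rose and 3 fell in knockout cells. Falls also outnumbered rises over all genes, 22.7% against 18.2% in wildtype and 21.9% against 19% in knockout. Sppl2a, the protease that removes the last membrane stub of the invariant chain, rose by 1.33 ± 0.12, while Ifi30, the lysosomal thiol reductase, and the asparaginyl endopeptidase Lgmn fell by 1.31 and 1.28 (adjusted p of 0.0020, 0.0072 and 0.0078). In the knockout the aspartic protease Ctsd was lower at rest at -0.40 ± 0.079 (adjusted p = 0.042) and after LPS at -0.83 ± 0.079 (0.0020), with ratios of -0.48, -0.32, -0.91 and -0.75. Its second probe was at -0.36 and -0.32, and with median centring the basal value turned to 0.12. Ctsk was lower at rest at -0.62 ± 0.086 (0.011). After LPS Ctsc was lower at -0.41 ± 0.071 (0.015) and Lgmn higher at 0.42 ± 0.077 (0.018). Over both conditions 3 were lower, beside 8.22% of all genes, namely Ctsd at -0.61, Ctsk at -0.47 and Ctsc at -0.30. With median centring Ctsc was at 0.05. Cst3, a cathepsin inhibitor, was higher over both conditions at 0.21 ± 0.057. Cst3 is itself one of the 46 bright genes.

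Turnover and trafficking genes were split. Of 13 measured genes 3 rose and 4 fell in wildtype and 3 rose and 5 fell in knockout cells after LPS. The share of all genes called in either direction was 40.9% in each genotype. Cd83, which shields class II from ubiquitin-driven loss, rose by 2.47 ± 0.10 (adjusted p = 4.8e-04) and the tetraspanin Tspan33 by 1.57 ± 0.29 (0.013), and the myosin Myo1e, which acts in class II trafficking, fell by 1.68 (0.0035). Marchf1, the ubiquitin ligase that marks class II for degradation, was lower in the knockout after LPS at -0.38 ± 0.079 (0.029) and over both conditions at -0.25 ± 0.056 (0.026). Its second probe was at 0.31 at rest and 0.44 after LPS, and with the mean of both probes Marchf1 was at 0.03 and 0.06, so no direction holds for it. Over both conditions Tspan33 was lower at -0.52 ± 0.10 and Cd9 at -0.28 ± 0.061, and Lamp1, a lysosomal membrane protein, was higher at 0.24 ± 0.055 (adjusted p of 0.019, 0.024 and 0.029). Cd9 turned to 0.17 with median centring. At rest 0 of 13 passed in limma, with 7 at an unadjusted p under 0.05, beside 19.8% of all genes.

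Of 8 surface partners of class II 5 rose and 1 fell with LPS in each genotype. The shares of all genes were 18.2% higher and 22.7% lower in wildtype, and 19% and 21.9% in knockout cells. Cd40, the receptor for T cell help, rose by 6.43 ± 0.096, Icam1, an adhesion ligand, by 3.23 ± 0.19 and Cd274, an inhibitory ligand, by 2.87 ± 0.090 (adjusted p of 2.0e-04, 9.0e-04 and 3.2e-04). Cd40 was higher in the knockout at rest at 0.51 ± 0.080 (0.016), after LPS at 0.32 ± 0.080 (0.047) and over both at 0.42 ± 0.056 (0.0046), with ratios of 0.62, 0.41, 0.28 and 0.37. Over both conditions the costimulator Cd80 was lower at -0.29 ± 0.073 (0.039) and Cd81 at -0.37 ± 0.080 (0.025). Cd80 is also the 1 gene counted as falling with LPS, at -0.72 in wildtype cells, and its probes disagreed. The second was at 0.19 and 0.02 between genotypes and rose by 3.30 with LPS in wildtype cells.

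Of 7 other measured genes of the class II region, which neighbour the chains, 5 were higher with LPS in each genotype and 0 lower. Among all genes 18.2% were higher and 22.7% lower in wildtype, and 19% and 21.9% in knockout cells. H2-DMb2, the second beta chain gene of H2-DM, was not called, at -0.28 in wildtype and -0.21 in knockout cells, and whether its probe and that of H2-DMb1 bind each other's transcript was not tested. Tap1 and Tap2, the peptide transporter of class I, rose by 2.62 ± 0.11 and 1.21 ± 0.096, and the immunoproteasome subunit Psmb9 by 1.66 ± 0.17 (adjusted p of 4.6e-04, 0.0015 and 0.0028). Tap2 was lower in the knockout after LPS at -0.52 ± 0.12 (0.036) and over both conditions at -0.50 ± 0.083 (0.0099), and negative on all 4 arrays, at -0.39, -0.58, -0.75 and -0.29. At rest 0 of 7 passed in limma, with 1 at an unadjusted p under 0.05, beside 19.8% of all genes. Of the 31 genotype calls named in these lists, all 31 kept their sign with the processed signals and 7 passed there. With LPS replicate 1 left out 7 of the 31 passed, and with LPS replicate 2 left out 8 did.

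**Figure D4:**
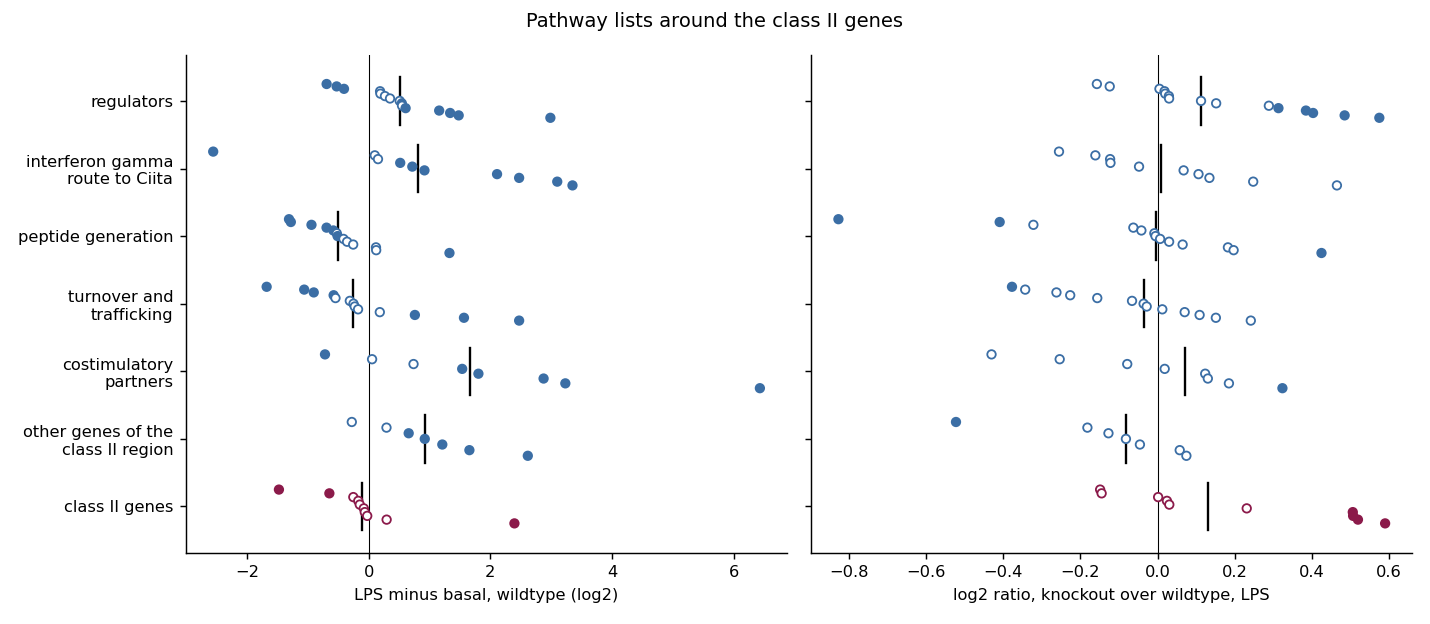
Estimates for the genes of 6 pathway lists (blue) and the class II genes (dark red), as LPS minus basal in wildtype cells (left) and as the log2 ratio of knockout over wildtype after LPS (right); filled points have an adjusted p under 0.05 and the vertical bar is the list's median. The class II genes centre near -0.11 on the left, between the costimulatory partners at 1.67 and the peptide generation genes at -0.51, and hold 4 called genes between 0.51 and 0.59 on the right.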

How the data were processed

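Per the labels, 10 µg of total RNA per sample was labelled and hybridised on 4 Agilent arrays with 2 colours, 2 basal and 2 LPS, wildtype in Cy3 and knockout in Cy5. The deposited scanner files hold spot and background intensities, from Agilent Feature Extraction 11.5.1.1 per the file headers while the submitters' processing notes name 9.3.2.1. The log10 ratios that the authors deposited in them were not used. In the authors' deposited value table the unit is a log2 ratio, knockout over wildtype. Its values equal those of the processed signals plus a constant of -0.0020 to 0.0051, with column medians of 0.016 to 0.034. How that constant was set is unknown.

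Median intensities were corrected with normexp (offset 50) and normalised by loess within arrays, giving weight 0 to control and outlier spots. Aquantile then made levels comparable between arrays (limma 3.58.1, R 4.3.3). Replicate spots of a probe were averaged. Probes with 1 channel well above background on 2 or more of 4 arrays were kept, 28633 of 39429, and the brightest kept probe stood for its gene, 23568 in all. Of all probes 27508 matched a RefSeq symbol (GRCm38.p6) and 11921 did not. The headers name mm9 as the build of the array, so only promoter coordinates from the RefSeq table are given. Between 68.3% and 71.0% of probe spots per array exceeded background clearly for Cy3 and between 62.1% and 65.0% for Cy5, and no probe spot was saturated.

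Genotype was tested on the within-array log2 ratio and LPS on the levels of 1 channel, with lmFit and eBayes on group means, two-sided, and Benjamini-Hochberg adjustment over all 23568 genes with a threshold of 0.05. Every adjusted p in the text comes from these limma fits, and ± gives the moderated standard error. The genotype comparisons share arrays with each other and with the LPS comparisons, so they are not independent. All arrays came from 1 slide and 1 scan. Bounds for a probe not well above background compare the mean of the bright group with the higher of the lowest signal well above background and the probe's own.

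Members and gene lists were chosen with earlier results of these data known. The list genes named are those past the threshold between genotypes, up to 4 per list and comparison by size, and the 3 with the largest LPS response in wildtype cells. Likeness was Pearson's r over 8 levels. Alternatives covered background correction and normalisation, the filter, the probe choice, scaling across arrays, the channel model, the authors' table, a replicate block and each array left out. In data simulated for knockout against wildtype after LPS over 23568 genes, 16.4%, 68.7% and 97.0% of genes changed by 0.5, 1 and 2 log2 units were recovered. For LPS against basal in wildtype the shares were 0%, 0% and 45.5%. Each simulation changed only 67, 67 and 66 genes of these sizes, while 40.9% of all genes were called for LPS in the wildtype data. With so few changed genes the adjusted threshold is harder to reach, so these shares do not measure recovery in the data.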

Additional observations from a re-analysis of the deposited data

Results flagged for a closer look

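For H2-DMb1 the log2 ratio of knockout over wildtype was 0.07 and 0.19 at rest but -0.06 and -0.23 after LPS, so every array of one condition lay on the other side of 0 from every array of the other. The difference between the conditions was -0.27, and its test did not pass (adjusted p = 0.45). Tap1 had ratios of -0.05 and -0.33 at rest and 0.07 and 0.05 after LPS, a difference of 0.25 that did not pass either (adjusted p = 0.55).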

How the results depend on the processing

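Counts below are of class II genes past the threshold, out of 10. For knockout against wildtype the count was 2 at rest, 4 after LPS and 4 over both conditions. The processed signals gave 0, 0 and 1, the values deposited by the authors likewise 0, 0 and 1, median centring 5, 6 and 6, adding H2-DMb1 in each comparison, and the mean over the probes of a gene 1 at rest. LPS gave 3 in each genotype, and 5 in wildtype and 6 in knockout with 75th percentile scaling. Leaving out each array in turn gave 0 to 2 at rest, 0 to 4 after LPS, 2 to 5 over both, 0 for the difference between conditions, 2 to 3 for LPS in wildtype and 1 to 4 for LPS in knockout. The causes were not tested. Of the 16 calls on class II genes, all 16 kept their sign under each setting run on them, and all 16 passed with no filter, with the stricter filter and with median centring, 7 with the processed signals and 8 to 11 with an array left out. Over all 10 genes and 6 comparisons 51 of 740 alternative values had the other sign, none of them a value that had passed; 16 came without basal replicate 2 and 10 with median centring. Among the latter were H2-DMb1 (0.39 after LPS, 0.53 over both), which then passed, H2-Aa (0.06 at rest, 0.29 over both), H2-DMa (0.22 at rest, 0.27 over both) and Ciita (0.19 at rest, 0.03 after LPS, 0.11 over both). With 75th percentile scaling Cd74 (0.46), H2-Ab1 (0.49) and H2-Eb1 (0.52) turned for LPS in wildtype. Among list genes called between genotypes, Ctsd (0.12 at rest), Cd9 (0.17) and Ctsc (0.054) over both turned with median centring, and Marchf1 with the mean of its probes (0.033 after LPS and 0.061 over both).

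Basal and LPS arrays share replicate numbers, and nothing in the labels says that a number marks a shared culture. The deviations of same-numbered arrays from their group means correlated at -0.16 in the ratio, -0.19 in the wildtype level and -0.08 in the knockout level over 23568 genes. The replicate block took the count at rest from 2 to 0 and left the others at 4, 4, 0, 3 and 3. The crossed pairing, added after seeing the data, gave 4 at rest, 4 after LPS and 5 over both.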
